A study of Fundulus heteroclitus with 15 samples.

Results

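In adult females of the mummichog, Fundulus heteroclitus, a killifish of estuaries, livers were compared between fish kept 14 days in water with 17α-ethinylestradiol (EE2) at 250 ng/L and fish kept in water without it. EE2 is the synthetic estrogen of contraceptive pills. The 5 arrays labelled with 250 ng/L EE2 were set against the 5 arrays whose treatment is given as none, called control here, which makes 10 of the 15 arrays of the series. The other 5 arrays come from livers of adult females held at 50 ng/L EE2 and are quoted only beside the 2 groups. Each array carried Cy3-labelled total RNA of liver on 7152 probes, and the labels call the arrays of a group biological replicates. The labels do not say whether RNA from several fish was pooled for an array, and p-values measure the spread between arrays, part of which may be technical.

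Estrogen reaches the fish liver through nuclear receptors of hepatocytes, which switch on genes for egg components. The hepatocytes make vitellogenin, the yolk precursor, and zona pellucida proteins of the egg envelope, and both travel in the blood to the ovary. In an egg-laying female this is a normal function of the liver, so females without added estrogen can carry some of these transcripts.

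A level here is the log2 processed signal of a probe minus the 75th percentile of its own array, and a shift is the mean level at 250 ng/L minus the mean level in controls. The 75th percentile ran from 793 to 2762 intensity units over the 10 arrays, and 75.6% to 91.7% of probes were well above background. Pearson correlations of the levels over probes were 0.943 to 0.969 between arrays at 250 ng/L, 0.932 to 0.973 between controls and 0.924 to 0.958 between arrays of the 2 groups. Slide 1 held 3 arrays at 250 ng/L and 2 controls, and slide 2 held 2 and 3. The labels give no replicate numbers, and those used below count the arrays of a group in the order of the series. Of the 41 probes for markers of hepatocytes (fibrinogens, apolipoproteins, serotransferrin and the like), 40 were well above background on all 10 arrays. Since the RNA is that of a whole tissue piece, fewer cells of a type and less RNA per cell cannot be told apart in any of the values below.

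The probes called as different between exposed livers and controls were a small share, with large shifts that were mostly upwards. Smaller shifts can fail the limma test with so few arrays, so this share does not measure how many probes differed. At an unadjusted limma p under 0.05 there were 722 probes, and these did not lean upwards. Of 6028 probes tested with limma, 118 passed an adjusted p of 0.05, which is 1.96%. They were 101 probes higher at 250 ng/L (1.68%) and 17 lower (0.282%), while probes at an unadjusted p under 0.05 divided evenly into 361 higher and 361 lower. The shifts of the risers had a median of 3.30 on the log2 scale, against -0.05 over all probes tested, and 100 of the 101 were at least 2-fold, 53 at least 8-fold and 24 at least 32-fold. With the 3 risers that were not well above background on any control set to their lower bounds in the main processing, the median was 3.13. At least 8-fold were then 52. The shifts of the 17 fallers had a median of -1.42, and 2 of them were at least 8-fold. On 98 of the 101 risers every array at 250 ng/L lay above every control. For 16 of the 17 fallers every array at 250 ng/L lay below every control. These probes were called on the same arrays, so their separation follows largely from that choice. Over all probes tested such separation occurred on 2.5% upwards and 1.87% downwards. The called probes named 66 genes that rose and 7 that fell, out of 2913 genes tested. Of probes with a gene name 2.3% were called, and of probes without one 27 were called (19 higher, 8 lower), or 1.32%. All 101 risers and all 17 fallers kept their sign on each slide taken alone. For the 98 risers and 16 fallers without overlap this was fixed in advance, since the slides hold the same arrays. Of these 118 probes, 34 passed the test within slide 1 and 51 within slide 2.

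**Figure D1:**
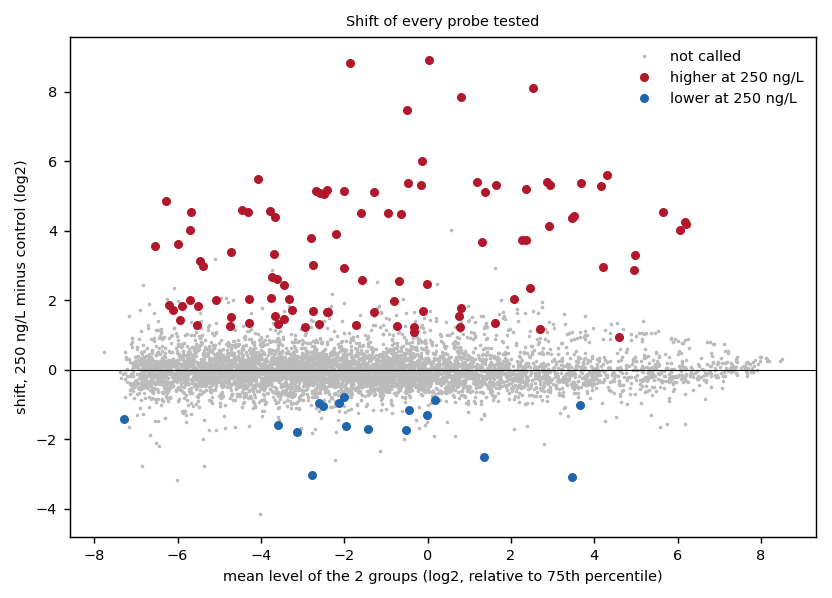
Each point is a probe; the x axis is its mean level over the 2 groups and the y axis its shift at 250 ng/L against control, both on the log2 scale. Red points are the 101 probes called higher, blue points the 17 called lower, and grey points the rest; the risers reach 8.92, while the fallers end at -3.08.

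Yolk precursors rose most. The probe named Vitellogenin had levels of 4.72, 4.25, 4.09, 4.36 and 5.02 on the 5 arrays at 250 ng/L, against -5.45, -5.26, -3.52, -3.80 and -4.15 in controls. No exposed array came within 7 log2 units of any control. Its shift was 8.92 ± 0.389 (SE, n = 5 per group), a 485-fold rise with a limma adjusted p of 3.81e-07. The probe named Vitellogenin A2 shifted by nearly as much, 8.82 ± 0.461, but was well above background on 3 of 5 controls only. Vitellogenin I, one of the main yolk proteins of killifish, had levels of 6.81, 6.46, 6.18, 6.43 and 7.03 at 250 ng/L on its probe with the smallest p, against -2.26, -2.0, -0.70, -1.2 and -1.51 in controls. The exposed arrays spanned less than 1 log2 unit, and the shift of 8.12 ± 0.305 had the smallest adjusted p of all probes (1.53e-07). The 3 other Vitellogenin I probes rose by 5.60, 4.25 and 4.01.

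Vitellogenin II, the second of these yolk proteins, had levels of 5.04, 4.93, 4.04, 4.67 and 4.98 at 250 ng/L, against -4.07, -3.14, -3.32, -3.95 and -1.14 in controls. Control replicate 5 stood above the other controls, yet well below every exposed array, and the shift was 7.86 ± 0.497 (limma adjusted p = 5e-06). A second probe of the gene rose by 7.48, and the last one did not pass, with a shift of -0.24 ± 0.192 (adjusted p = 0.676). At 50 ng/L the mean levels were 1.84 ± 1.24 for Vitellogenin, 4.42 ± 0.831 for Vitellogenin I and -0.36 ± 1.51 for Vitellogenin II (SD, n = 5), each between the 250 ng/L and the control means.

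Transcripts of egg envelope proteins rose as well. Zona pellucida sperm-binding protein 4 (ZP4) had levels of 6.69, 6.33, 6.0, 6.5 and 6.30 at 250 ng/L on its probe with the smallest p, against 1.22, 2.0, -0.36, 0.97 and 1.19 in controls. The groups were far apart, and control replicate 3 was the lowest of all. The shift was 5.36 ± 0.37 (41-fold; limma adjusted p = 8.43e-06), and the 3 other ZP4 probes rose by 4.18 to 4.54. Zona pellucida sperm-binding protein 3 (ZP3) had levels of 5.87, 5.91, 5.28, 5.72 and 5.63 at 250 ng/L, against 2.71, 2.61, 2.15, 2.90 and 3.32 in controls. Within each group the ZP3 levels lay close together, and the shift was 2.94 ± 0.238 (7.7-fold; adjusted p = 2.85e-05). A second ZP3 probe rose by 2.88, and the last one had a shift of -0.30 ± 0.212 (adjusted p = 0.642). The single probe for zona pellucida sperm-binding protein 1 was too dim to be tested. In all, 14 of the 16 probes tested for yolk and egg envelope proteins rose, against 1.68% of all probes tested, and 0 fell. The median shift of the 16 was 4.48, and all 6 genes tested had at least 1 probe higher. The summed signal of the 16 probes was 1129 to 2469 times the 75th percentile on the exposed arrays and 41.2 to 138 times in controls.

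The receptors that bind EE2 did not pass the test. The 2 probes for estrogen receptor alpha had shifts of 0.53 ± 0.519 and 0.05 ± 0.476 (limma adjusted p = 0.746 and 0.977). Those for estrogen receptor beta A were at -0.14 ± 0.225 and -0.28 ± 0.215 (adjusted p = 0.853 and 0.665). On the alpha probe with the larger shift, levels at 250 ng/L were -1.27, -0.67, -2.99, -2.53 and -1.74, against -1.74, -1.71, -3.03, -3.65 and -1.70 in controls. The groups overlapped there, and replicates within a group differed by more than 1 log2 unit. Of 18 probes for steroid receptors and steroid metabolism 0 passed, and 0 had an unadjusted limma p under 0.05. Their median shift was 0.13. Among all 6028 probes tested 1.96% passed, so 0 of 18 is near that share, and 722 had an unadjusted limma p under 0.05.

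**Figure D2:**
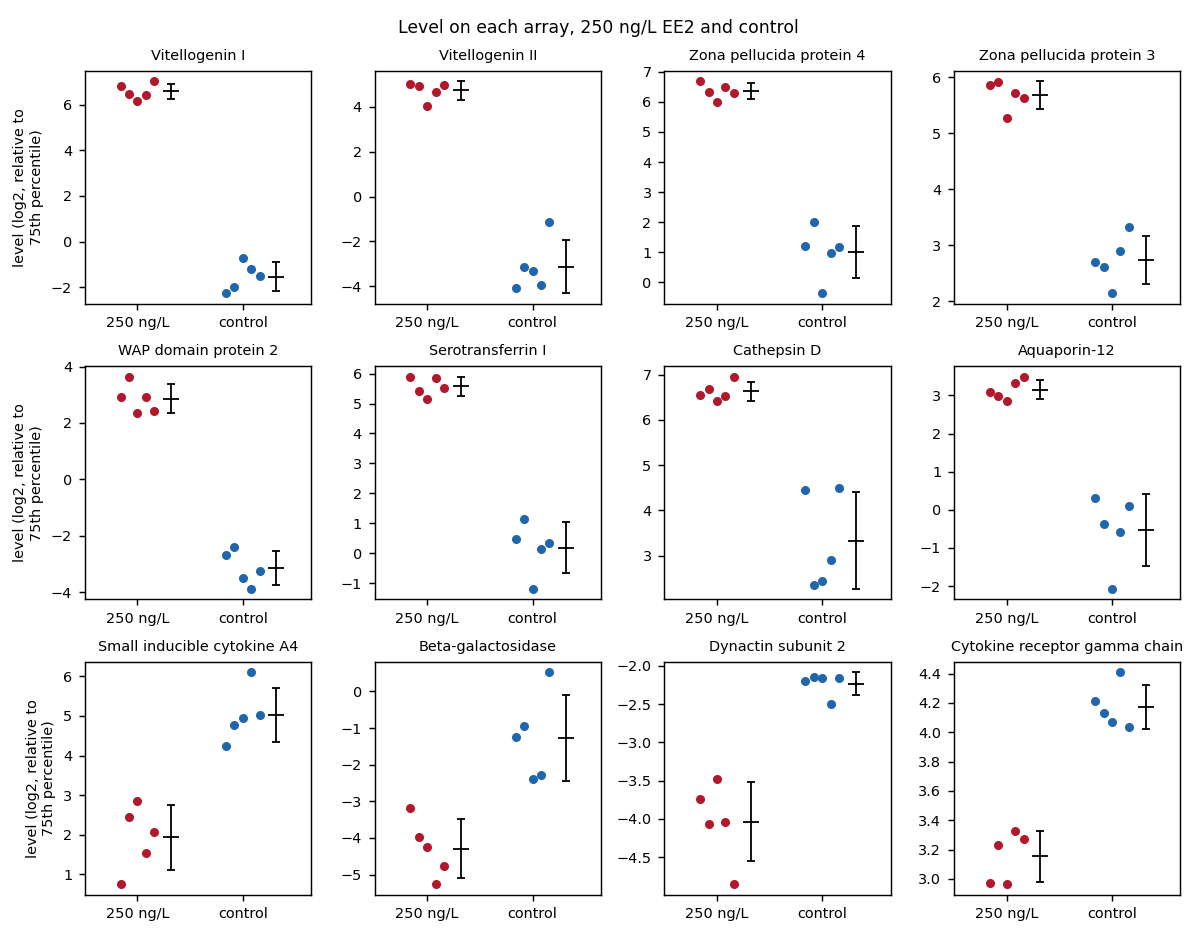
Points are the 5 arrays of each group (250 ng/L red, control blue), and the bars beside them are the mean ± SD; the y axis is the log2 level relative to the array's 75th percentile, on a scale of its own in each panel. Each panel shows the gene's probe with the smallest p. The 2 groups stay apart in all 12 panels, upwards in the first 8 and downwards for the chemokine, beta-galactosidase, dynactin subunit 2 and the cytokine receptor. These probes were called on the same arrays, so their separation follows largely from that choice. Other probes of Vitellogenin II, ZP3, the chemokine and dynactin subunit 2, not shown, did not pass.

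Small secreted proteins with the whey acidic protein (WAP) fold, many of which inhibit proteases, formed the second group of steep risers. All 6 probes of the 3 genes on the array rose, against 1.68% of all probes tested, with a median shift of 5.34. WAP four-disulfide core domain protein 2 had levels of 2.93, 3.64, 2.36, 2.91 and 2.44 at 250 ng/L on its probe with the smallest p, against -2.69, -2.41, -3.51, -3.88 and -3.25 in controls. Every exposed array lay above every control here, and the shift was 6.0 ± 0.332 (64.2-fold, limma adjusted p = 2.44e-06). The probe named whey acidic protein had levels of 3.84, 4.77, 2.95, 4.08 and 3.77 at 250 ng/L, against -1.95, 1.74, -2.38, -1.45 and -3.52 in controls. Control replicate 2 stood more than 3 log2 units above the other controls, and the shift of 5.39 carried the larger error of 0.806 (adjusted p = 0.00296). The related core domain protein 3 rose on both of its probes, by 5.36 ± 0.725 and 5.08 ± 0.588. WDNM1, known from rodents as a protein of the same fold and not on the list, rose by 5.05 ± 0.616. Summed over the 6 probes of the list, signal was 25.2 to 68.1 times the 75th percentile at 250 ng/L, 5.68 times in control replicate 2 and 0.333 to 0.714 times in the other controls. With control replicate 2 left out the list still had 6 probes higher. Within slide 1, which holds that array, 1 of the 6 passed.

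Serotransferrin I, a plasma iron carrier, was the 1 probe of 18 for iron transport and storage that rose, against 1.68% of all probes tested. Its levels were 5.89, 5.41, 5.15, 5.87 and 5.53 at 250 ng/L, against 0.46, 1.14, -1.19, 0.12 and 0.35 in controls. The exposed arrays lay close to each other and far above all controls, with a shift of 5.39 ± 0.375 (42-fold; limma adjusted p = 8.45e-06). The other 17 iron probes did not pass. Among 4 probes named serotransferrin, without the numeral, the one of smallest p had a shift of 0.34 ± 0.266 (adjusted p = 0.666). Hepcidin, the hormone that limits iron release, had shifts of 1.04, 0.76 and -0.67 on its 3 probes (adjusted p = 0.284, 0.444 and 0.777). Hemopexin, which binds heme, had -0.85, -0.70 and 0.49 on its 3 probes (adjusted p = 0.343, 0.509 and 0.384). The list had a median shift of 0.31.

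Several of the steepest risers carry names from other kingdoms, which the array's design took from sequence matches that cannot be examined here. All 4 probes named sporozoite surface protein 2, after a malaria parasite protein, rose, 3 of them by 4.38 to 5.32. The other one was not well above background on any control (0 of 5) and rose at least 14.6-fold in the main processing. Its smallest shift over the alternatives was 1.79. Probes named TraD protein, gamma-gliadin, App1 protein and DNA translocase ftsK rose by 5.20, 5.18, 5.12 and 5.12. TraD had levels of 5.42, 4.72, 4.46, 5.22 and 4.91 at 250 ng/L, against -0.25, 0.54, -1.16, -0.30 and -0.10 in controls. Its groups were separated by nearly 4 log2 units (adjusted p = 3.52e-06). Among probes without any name, UnAn_28039 rose by 5.48 ± 0.46 and UnAn_21133 by 5.29 ± 0.386. UnAn_28039 was well above background on 3 of 5 controls only, and its smallest shift over the alternatives was 3.29. UnAn_22079, well above background on 0 of 5 controls, rose at least 11.1-fold in the main processing, with a smallest shift of 1.63 over the alternatives. UnAn_21133 had levels of 7.4, 6.59, 6.32, 6.84 and 6.91 at 250 ng/L, against 1.60, 2.42, 0.12, 1.63 and 1.83 in controls. What these transcripts encode is unknown here.

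The 3 probes of the lysosome list that rose were named for aspartic proteases of the lysosome and the endosome, a grouping made after the calls were seen. Cathepsin D, which in fish also cleaves vitellogenin within the egg, had levels of 6.56, 6.69, 6.42, 6.53 and 6.95 at 250 ng/L, against 4.45, 2.36, 2.45, 2.92 and 4.50 in controls. The exposed arrays were tightly grouped, while the controls formed a higher pair (replicates 1 and 5) and a lower trio. The shift was 3.30 ± 0.437 (9.82-fold; limma adjusted p = 0.00125). Cathepsin E1, named for an aspartic protease of endosomes in mammals, had levels of 4.33, 4.18, 4.08, 4.15 and 4.31 at 250 ng/L, against 0.99, -0.56, -0.43, 0.51 and 1.92 in controls. Its 5 exposed arrays had an SD of 0.109, against 1.03 in controls, and the shift was 3.73 ± 0.421 (13.2-fold; adjusted p = 0.000348). A probe named cathepsin E rose by the same amount, 3.73 ± 0.441, and its level stayed within a span of 0.19 of a fixed distance from that of cathepsin E1 over the 10 arrays. At 50 ng/L cathepsin D averaged 5.19 ± 0.384 and cathepsin E1 2.65 ± 0.468.

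The lysosome list as a whole did not follow them. Beta-galactosidase, which removes galactose from glycolipids and glycoproteins, had levels of -3.17, -3.98, -4.26, -5.26 and -4.77 at 250 ng/L, against -1.23, -0.95, -2.38, -2.27 and 0.52 in controls. All exposed arrays were below all controls, and it fell by 3.02 ± 0.56 (8.14-fold; limma adjusted p = 0.0145). Among all probes tested, 1.68% were called higher and 0.282% lower. The levels of cathepsin E and cathepsin E1 ran nearly in parallel, and whether their probes read separate transcripts was not tested. Of the 33 lysosomal probes tested, 3 rose, 1 fell and 29 did not pass, with a median shift of 0.07. Cysteine cathepsins were among those that did not pass, and the probes of smallest p for cathepsins Z, B and S had shifts of 0.37, 0.43 and -0.36 (adjusted p = 0.71, 0.717 and 0.746). Sphingomyelin phosphodiesterase, an enzyme that splits sphingomyelin, rose by 1.29 ± 0.238 (adjusted p = 0.0145). It stands outside that list and was picked after its values were seen.

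Among proteins of plasma and membranes, plasma kallikrein, a protease of the contact system of coagulation, had levels of 4.56, 4.48, 5.03, 5.54 and 5.30 at 250 ng/L on 1 probe, against 0.49, 1.05, -0.17, 1.34 and 1.53 in controls. All exposed arrays were far above all controls, with a shift of 4.13 ± 0.347 (17.5-fold; limma adjusted p = 3.5e-05). The second kallikrein probe had a shift of 0.78 ± 0.283 (adjusted p = 0.272). Plasma kallikrein was the 1 gene to rise among 80 probes for complement and coagulation, whose median shift was 0.04, and 0 fell. Among all probes tested 1.68% were called higher, so 1 of 80 is near that share. Coagulation factor XI, a related protease, had a shift of 0.80 (adjusted p = 0.417), and complement factor B had -0.45 on its probe of smallest p (adjusted p = 0.436).

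Aquaporin-12, a channel of internal membranes known from the acinar cells of the mouse pancreas, was picked out after its values were seen, as were the other genes of this paragraph. Its levels were 3.09, 2.99, 2.85, 3.32 and 3.49 at 250 ng/L, against 0.31, -0.38, -2.07, -0.59 and 0.10 in controls. The groups did not overlap, and the shift was 3.67 ± 0.396 (12.8-fold; limma adjusted p = 0.00023). For markers of exocrine pancreas, tissue that many fishes carry within the liver, the groups overlapped. At 250 ng/L their summed signal was 336, 677, 2343, 299.7 and 1082 times the 75th percentile, against 474, 46.7, 559, 788 and 356 times in controls. The part of such tissue in the aquaporin-12 values was not tested. Phosphatidylinositol transfer protein beta, which moves phospholipids between membranes, rose by 4.51 ± 0.332, and type I keratin of 50 kDa, an intermediate filament protein of epithelia, by 2.92 ± 0.428 (adjusted p = 0.00265). The probe named for the alpha subunit of gonadotropin, a pituitary hormone, rose by 1.7 ± 0.298 (adjusted p = 0.00992).

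Retinal fatty acid-binding protein, a carrier of fatty acids named for its tissue in other animals, rose unevenly across arrays. Its levels were 2.84, 1.29, -1.46, 1.88 and 1.93 at 250 ng/L, against -3.38, -1.27, -4.75, -3.78 and -2.81 in controls. Exposed replicate 3 fell below control replicate 2, so the groups overlapped, and the shift of 4.49 had an error of 0.808 (limma adjusted p = 0.012). It was the 1 riser among 31 probes for apolipoproteins and fatty acid carriers, of which 0 fell, with a median shift of -0.21. The share called higher among all probes tested was 1.68%, so 1 riser says little about this list. The remaining members included apolipoprotein A-I at -1.68 ± 0.628 and apolipoprotein Eb at -1.99 ± 0.747 on 1 probe each (adjusted p = 0.288 for both).

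Enzymes of cholesterol synthesis had shifts above 0 throughout, and 4 of 12 probes passed the test. All 12 shifts were above 0, 10 of them at an unadjusted limma p under 0.05, and their median was 1.5 against -0.05 over all probes. Over all 6028 probes tested, 1.68% were called higher and 2712 shifts were above 0, 361 of them at an unadjusted limma p under 0.05. Lanosterol 14-alpha demethylase, which takes a methyl group off lanosterol, had levels of 0.27, -0.43, -0.62, -1.10 and 0.48 at 250 ng/L, against -3.98, -1.56, -3.48, -2.54 and -2.81 in controls. Control replicate 2 came closest to the exposed arrays without reaching them, and the shift was 2.59 ± 0.455 (6.04-fold; limma adjusted p = 0.00992). 24-dehydrocholesterol reductase, of the last steps, rose by 2.04 ± 0.394 (adjusted p = 0.0194), and C-4 methylsterol oxidase, which acts between them, by 1.55 ± 0.323 (adjusted p = 0.0305). Isopentenyl-diphosphate delta-isomerase 1, of the early isoprenoid steps, rose by 2.03 ± 0.418 on 1 probe (adjusted p = 0.0285) and had 1.94 ± 0.442 on the other (adjusted p = 0.0522). HMG-CoA reductase, the rate-limiting enzyme, had shifts of 1.44, 1.2 and 0.88 on its 3 probes (adjusted p = 0.222, 0.284 and 0.417), and cytosolic HMG-CoA synthase, a dim probe, had 0.11 ± 0.816.

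The cholesterol values turned on single arrays. Their summed signal was 88.8, 90.9, 51.6, 57.3 and 118.8 times the 75th percentile at 250 ng/L, against 26.5, 91.8, 23.9, 36.1 and 23.8 times in controls. Control replicate 2 lay within the range of the exposed arrays, and it was also the array with the least exocrine pancreas signal (46.7) and the highest WAP signal of the controls; the part of either in these values was not tested. Without control replicate 2 the count of risers was 6 of 12, and it was 1 without control replicate 1 or 3 or exposed replicate 1 or 5. It was 2 without exposed replicate 2 or control replicate 5 or with slide as a block, and 0 within either slide.

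Fatty acid synthesis, which supplies the lipid that vitellogenin carries, had 0 of 6 probes past the test, and a median shift of 0.97, or 0.45 without exposed replicate 1. Acyl-CoA desaturase, which makes monounsaturated fatty acids, had 2.17 ± 0.693 on 1 probe (limma adjusted p = 0.201) and 0.91 and 0.88 on the other two. Fatty acid synthase had 1.02 ± 0.605 (adjusted p = 0.557) and acetyl-CoA carboxylase 1, the first enzyme of the path, -0.38 ± 0.424 (adjusted p = 0.777). Cytoplasmic acetyl-CoA synthetase, which supplies acetyl groups to both paths and was singled out after its values were seen, was higher by 2.60 ± 0.538 for 1 of 2 probes (adjusted p = 0.0291), with 1.79 ± 0.495 for the second (adjusted p = 0.122). That call ended with slide as a block and without any 1 of 7 arrays. Of 19 probes for fatty acid oxidation 0 passed, with a median shift of -0.14. Among all probes tested 1.96% were called, and counts of 0 on lists this short are near that share.

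**Figure D3:**
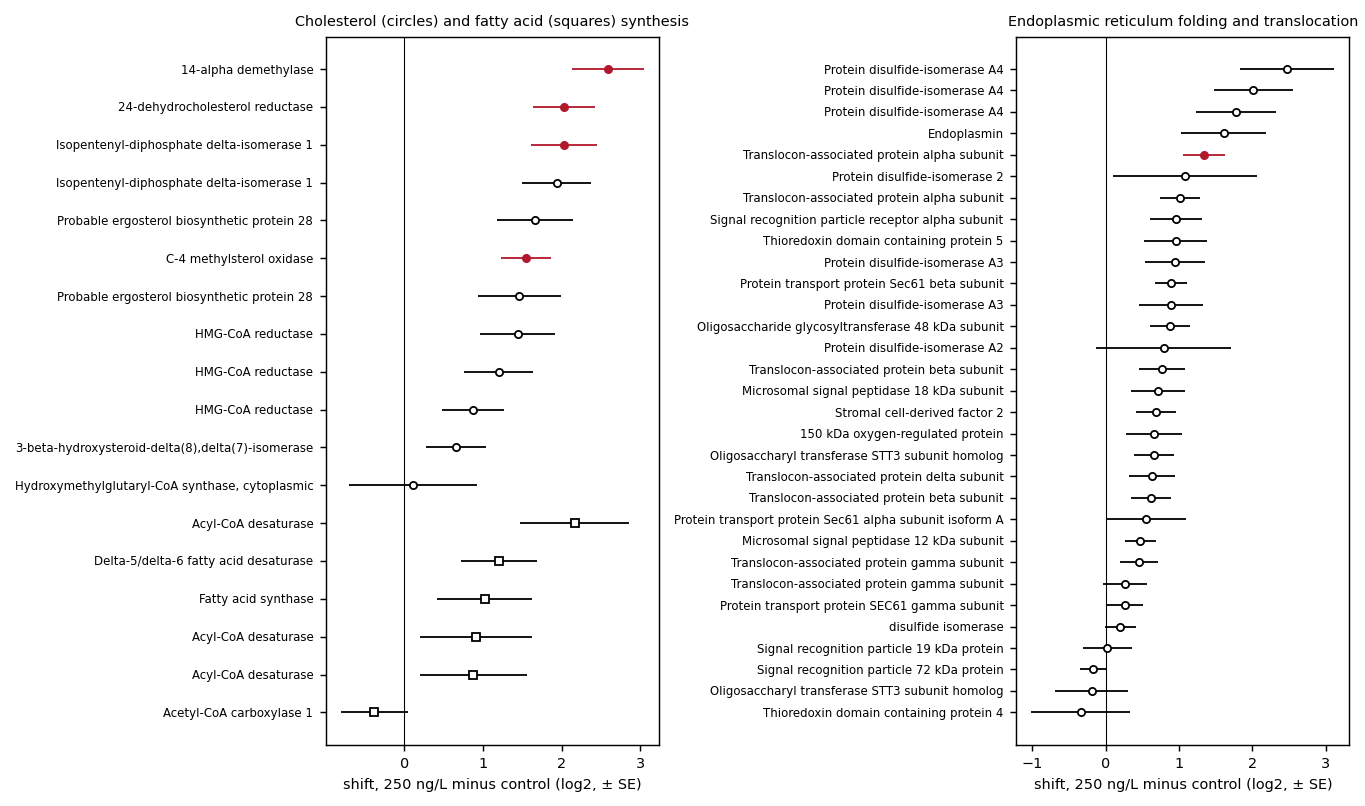
Shifts at 250 ng/L against control (log2, points with SE bars) for the probes of cholesterol synthesis (circles) and fatty acid synthesis (squares) on the left and of endoplasmic reticulum folding and translocation on the right; filled red points passed the limma test. All 12 cholesterol probes and 28 of the 31 endoplasmic reticulum probes lie right of 0, though 4 and 1 of them passed.

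Proteins of the endoplasmic reticulum, through which vitellogenin and other secreted proteins pass, gave fewer calls than cholesterol synthesis. Of 31 probes for folding and translocation 1 rose and 0 fell, against 1.68% higher and 0.282% lower among all probes tested. The median of the list was 0.72. Shifts above 0 were found on 28 of the 31, against 2712 of 6028 over all probes tested. At an unadjusted limma p under 0.05, 16 of the 31 were higher, against 361 of 6028. The riser was the alpha subunit of the translocon-associated protein, part of the channel complex that takes nascent chains in, with levels of 2.18, 1.74, 2.02, 2.44 and 3.10 at 250 ng/L, against 0.89, 1.02, 0.86, 1.56 and 0.45 in controls. Its groups did not overlap, and its shift was 1.34 ± 0.287 (2.53-fold; limma adjusted p = 0.0364). Its second probe had 1.01 ± 0.278 (adjusted p = 0.119). Protein disulfide-isomerase A4, which forms disulfide bonds, had the largest shifts of the list without a call, 2.47 ± 0.644, 2.01 and 1.78 (adjusted p = 0.0995, 0.106 and 0.182). On the first of these probes levels were 2.78, 1.45, 0.73, 0.99 and 1.32 at 250 ng/L, against -2.59, -0.84, -1.79, 1.26 and -1.16 in controls. Control replicate 4 lay among the exposed arrays, and without that array the list had 6 probes higher. The call of the alpha subunit itself ended with median scaling and without any 1 of 8 arrays. Endoplasmin, a chaperone, had 1.61 ± 0.578 (adjusted p = 0.27). The Golgi and vesicle list had 0 of 33 probes called, against 1.96% of all probes tested, and a median shift of -0.08.

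Regulators of growth and transcription made up a set of smaller, mostly dim risers, chosen here after their values were seen. Cyclin-dependent kinase inhibitor 1C, a brake on the cell cycle, had levels of -3.99, -3.16, -4.25, -3.47 and -4.65 at 250 ng/L, against -7.14, -6.66, -6.40, -7.24 and -6.96 in controls. The gap between the groups exceeded 1.5 log2 units, and the shift was 2.97 ± 0.3 (7.86-fold, limma adjusted p = 0.000135). Over the alternatives the smallest shift of this probe was 1.39. CYR61, a matrix-associated growth signal, rose on both of its probes, by 2.44 ± 0.28 and 1.83 ± 0.336, though with the normexp background correction the second shift was 0.88 and its call ended. Early growth response protein 2b, a zinc finger transcription factor, had levels of -5.63, -5.19, -5.38, -5.19 and -5.01 at 250 ng/L, against -6.84, -7.27, -7.13, -7.0 and -7.41 in controls. Both groups were narrow and well apart, and the shift was 1.85 ± 0.189 (adjusted p = 0.000146). Its signal was near background, with 3 of 5 controls well above it, and with the normexp background correction the shift was 0.77 and the call ended. The homeobox factor IRX-5 rose by 2.03 ± 0.285 (adjusted p = 0.00191) and elongation factor 2 kinase, which slows translation, by 1.77 ± 0.3 (adjusted p = 0.00791). The gamma chain of calcium/calmodulin-dependent protein kinase type II rose by 1.99 ± 0.315 on 1 of 2 probes, with 0.66 ± 0.239 on the second (adjusted p = 0.274). With normexp the first shift was 0.86 and its call ended. Of 14 probes for the cell cycle and DNA replication 0 passed, against 1.96% of all probes tested.

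The aryl hydrocarbon receptor 2, which in killifish mediates responses to dioxin-like compounds, was the 1 riser among 63 probes for cytochromes P450, conjugating enzymes and their regulators. Its levels were -5.82, -6.39, -4.54, -4.28 and -5.25 at 250 ng/L, against -6.80, -6.90, -6.80, -7.25 and -7.10 in controls. The controls were nearly level, the exposed arrays spread over 2 log2 units above them, and the shift was 1.71 ± 0.372 (limma adjusted p = 0.0393). The call ended in 12 of the 20 alternatives that gave a value, among them the authors' value table, with adjusted p up to 0.514. A second probe for receptor 2 was too dim to be tested, with mean levels of -8.40 at 250 ng/L and -8.57 in controls. The aryl hydrocarbon receptor 1 had -1.31 ± 0.428 (limma adjusted p = 0.218), and the list's median shift was -0.19. Over all probes tested 1.68% were called higher, a share near that of 1 in 63. Glutamate dehydrogenase, which links amino acid and energy metabolism, rose by 1.23 ± 0.266 (adjusted p = 0.0393) as the 1 riser among 41 probes for amino acid catabolism, with -0.39 ± 0.577 on its second probe. That call ended without any 1 of 8 arrays.

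Among the 7 named genes that fell, 2 belong to immune signalling. Small inducible cytokine A4 homolog, a chemokine, had levels of 0.75, 2.45, 2.86, 1.52 and 2.08 at 250 ng/L, against 4.24, 4.77, 4.94, 6.11 and 5.02 in controls. All exposed arrays lay below all controls, and it fell by 3.08 ± 0.433 (8.47-fold; limma adjusted p = 0.00191). Its second probe had a shift of 1.83 ± 1.22 in the other direction (adjusted p = 0.61). The common gamma chain of cytokine receptors, shared by receptors of several interleukins, had levels of 2.97, 3.23, 2.96, 3.32 and 3.27 at 250 ng/L, against 4.21, 4.13, 4.07, 4.41 and 4.03 in controls. Both groups were narrow, so that a fall of 1.02 ± 0.167 was enough to separate them (adjusted p = 0.00605). Of 57 probes for markers of immune cells these 2 fell and 1 rose, the T-cell death associated gene, by 1.25 ± 0.208 (limma adjusted p = 0.00672). With the normexp background correction the call of that riser ended. Among all probes tested, 0.282% were called lower and 1.68% higher, and counts this small say little about immune cells. The list had a median shift of -0.03, and its summed signal was 123 to 187 times the 75th percentile at 250 ng/L and 162 to 243 times in controls.

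Besides beta-galactosidase, 4 other named genes fell. Dynactin subunit 2, of the complex that ties dynein to its cargo, had levels of -3.74, -4.07, -3.48, -4.04 and -4.86 at 250 ng/L, against -2.20, -2.15, -2.16, -2.50 and -2.17 in controls, and fell by 1.80 ± 0.25 (limma adjusted p = 0.00176). The exposed arrays were the more variable group, and the 2 other probes of the gene had shifts of 0.28 and 0.08 (adjusted p = 0.703 and 0.936). The L11 protein of the mitochondrial ribosome fell by 1.59 ± 0.274 (limma adjusted p = 0.00875). It was the 1 faller among 36 probes for that ribosome, whose median was -0.21, against 0.282% of all probes tested. With normexp its shift was -0.92 and the call ended. G patch domain containing 1 fell by 0.95 ± 0.209 (adjusted p = 0.0431), and ubiquitin-activating enzyme E1-domain containing 1, an enzyme that activates a ubiquitin-like protein, by 0.79 ± 0.167 (adjusted p = 0.0334), the smallest called change. These 2 calls ended in 13 and 15 of 21 alternatives. Among probes without a name, UnAn_26946 fell by 2.51 ± 0.477, UnAn_23613 by 1.74 ± 0.296 and UnAn_23614 by 1.71 ± 0.305.

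The count of fallers was the less stable one: it was 10 without control replicate 1, 11 without control replicate 5 and 8 without exposed replicate 5, and 37 when all 15 arrays shared the estimate of spread. The count of risers stayed between 85 and 109 when any 1 array was left out. Of the 118 calls, 80 (74 higher, 6 lower) held under each alternative that gave the probe a value, the fits within 1 slide apart. With those fits counted, 99 of the 118 probes had a value under all 21 alternatives, and 22 of the 99 kept their call in all of them. Vitellogenins I and II, ZP4, ZP3, serotransferrin I, plasma kallikrein and the probes named TraD and ftsK were among these 22 with at least 1 probe each.

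The smallest risers were nuclear protein 1, a stress-induced chromatin protein, with 0.93 ± 0.188 on 1 of 2 probes (limma adjusted p = 0.0257), and the gene named upregulated by 1,25-dihydroxyvitamin D-3, with 1.1 ± 0.22 (adjusted p = 0.0237). The nuclear protein 1 probe averaged 4.13 ± 0.271 in control livers, 5.10 ± 0.553 with EE2 at 50 ng/L and 5.05 ± 0.17 with 250 ng/L (SD, n = 5). Its 50 ng/L mean did not lie between the others, and its call ended in 12 alternatives. Of the 101 risers, 98 had a 50 ng/L mean between the 250 ng/L and the control means, as did all 17 fallers. The control arrays are shared by both doses, and the probes were chosen for their difference between 250 ng/L and control. Both can favour such an order, so it is given as values only.

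Probes of 1 gene often differed. Of 22 called genes with at least 2 probes tested, all probes were called for 6: Vitellogenin I, ZP4, sporozoite surface protein 2, CYR61 and both WAP four-disulfide core domain proteins. For the other 16 at least 1 probe did not pass. Cytochrome c oxidase subunit 3, a mitochondrially encoded respiratory subunit, rose by 4.48 ± 0.381 on 1 of 6 probes (limma adjusted p = 3.7e-05), while the other 5 ranged from -0.38 to 0.24. Nucleolin, a nucleolar protein, rose by 4.38 ± 0.369 on 1 of 3 probes, and the other two were at -0.04 and -0.11. Picked after their values were seen, the probe named NACHT-, LRR- and PYD-containing protein 12 rose by 2.55 ± 0.378 beside 2 probes at -0.34 and -0.31, and death-associated protein 1 rose by 1.22 ± 0.244 beside 2 at -0.55 and -0.68. Whether a lone riser reads its named gene was not tested. Of the called genes 0 had probes called in both directions.

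**Figure D4:**
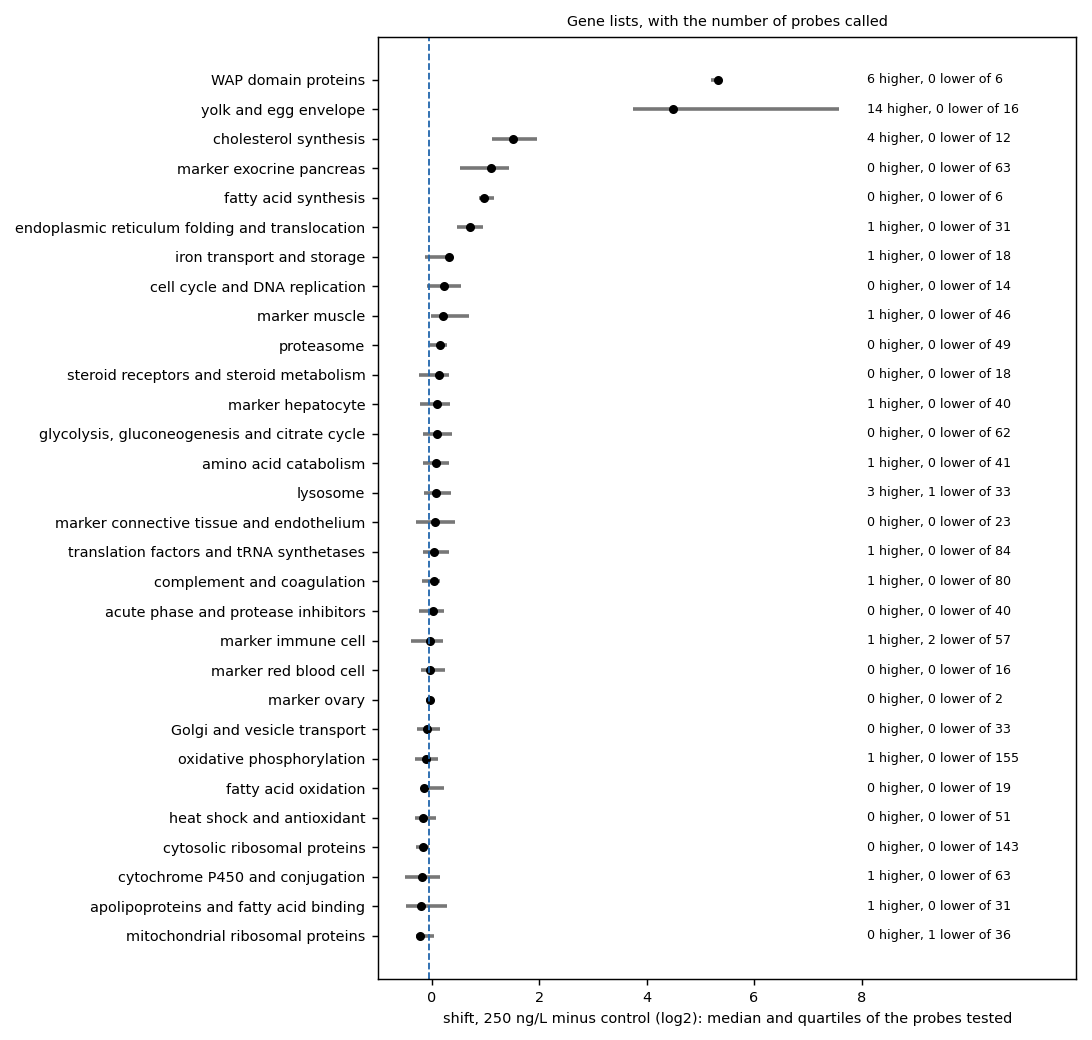
For each gene list the point is the median shift of its probes (250 ng/L minus control, log2) and the bar spans the quartiles; the dashed line is the median over all probes tested, -0.05. The WAP, yolk and egg envelope, cholesterol, pancreas and fatty acid lists lie farthest right, and the text at the right gives the probes called of those tested.

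Lists for general functions of the liver cell had 0 or 1 probe called each. Over all probes tested 1.96% were called, and a count of 0 on the shorter lists is near that share. Of 143 probes for cytosolic ribosomal proteins 0 passed (median -0.17), of 49 for the proteasome 0 (0.15), of 62 for glycolysis, gluconeogenesis and the citrate cycle 0 (0.09), of 51 for heat shock and antioxidant proteins 0 (-0.16) and of 40 for acute phase proteins and protease inhibitors 0 (0.02). Haptoglobin, which binds free hemoglobin, had 1.07 ± 0.275 (limma adjusted p = 0.0946), and alpha-1-acid glycoprotein had -1.30 ± 0.426 and 0.21 ± 0.953 on 2 probes (adjusted p = 0.218 and 0.958). Of 155 probes for oxidative phosphorylation and 84 for translation factors and tRNA synthetases, 1 each rose, the lone cytochrome c oxidase and nucleolin probes named above. Among the 40 hepatocyte marker probes tested, the one named serotransferrin I rose, 0 fell and the median was 0.09.

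Marker lists of cell types other than hepatocytes and immune cells, both given above, had 0 or 1 probe called each. Over all probes tested 1.96% were called, so counts this small say little about these cell types. Exocrine pancreas had 0 of 63 probes past the test, but 54 of the 63 shifts were above 0, against 2712 of 6028 over all probes tested. The median of the list was 1.1, with 2.43 on slide 1 and 0.19 on slide 2. That median was 0.42 without control replicate 2, the array lowest in these markers, and 0.65 without exposed replicate 3, the highest. The digestive enzyme pancreatic alpha-amylase had 1.45 ± 0.638 on its probe of smallest p (limma adjusted p = 0.399), and elastase-2 had 1.54 ± 0.846 (adjusted p = 0.517). The whole comparison had 109 risers and 23 fallers without control replicate 2, and 96 and 18 without exposed replicate 3. Muscle markers had 1 of 46 probes higher, the dim smooth muscle myosin heavy chain at 1.43 ± 0.282 (adjusted p = 0.0218), a call that ended in 8 of 20 alternatives. Red blood cell markers had 0 of 16 probes called and connective tissue and endothelium 0 of 23.

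**Figure D5:**
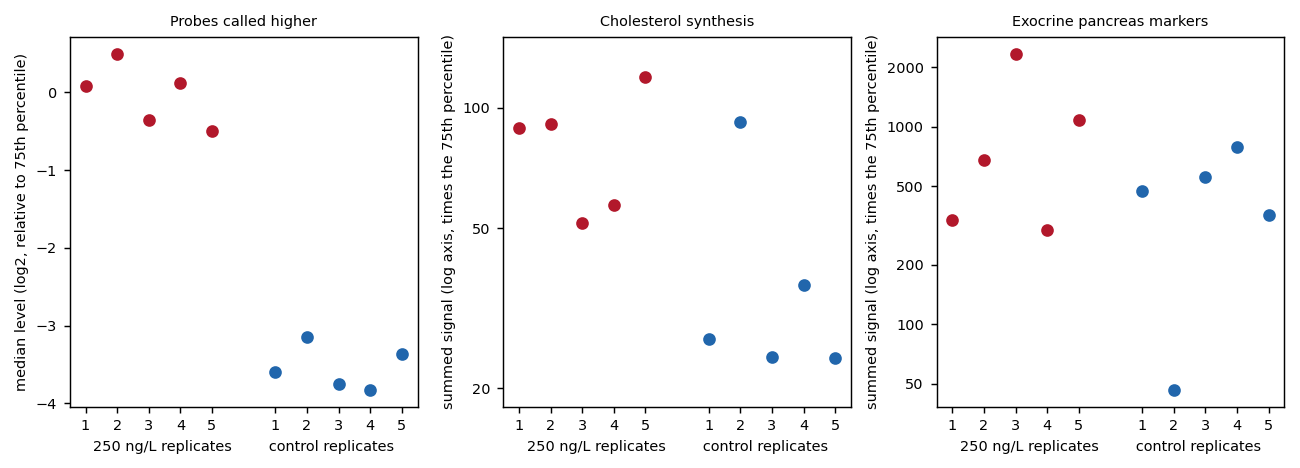
Each point is an array, with the 5 at 250 ng/L left of the 5 controls: the median log2 level of the 101 risers, the summed signal of the cholesterol probes and that of the exocrine pancreas markers, the last 2 on log axes in multiples of the array's 75th percentile. The groups are apart for the risers, as they must be, since these probes were chosen by that difference on the same arrays. For cholesterol synthesis control replicate 2 reaches the exposed arrays, and the pancreas markers overlap.

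Single arrays recurred at the ends of their group's range. At 250 ng/L, replicate 1 was the highest of its group on 43 of the 101 risers and replicate 3 the lowest on 52. Among controls, replicate 2 was the highest on 41, replicate 3 the lowest on 34 and replicate 4 the lowest on 31. The median SD of the risers was 0.537 at 250 ng/L and 0.573 in controls, against 0.422 and 0.457 over all probes tested.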

How the data were processed

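Liver RNA labelled with Cy3 was hybridised to 1-colour Agilent arrays, 5 per group. The deposited intensity values are processed signals after background subtraction and spatial detrending by Agilent Feature Extraction 10.7.1.1 (protocol GE1_107_Sep09), per the file headers. The deposited value table holds log2 values of the same arrays, whose normalization the labels do not state, and served as an alternative only; 0 of its columns went unused.

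Flagged outlier spots and control probes were dropped, the 2 spots of a probe averaged on the log2 scale, and each array's 75th percentile of log2 processed signal subtracted. Of 7152 probes, the 6028 that passed the well-above-background flag on 5 or more of these 10 arrays were tested with limma 3.58.1 in R 4.3.3 (lmFit and eBayes). Adjusted p-values are Benjamini-Hochberg values over all 6028 probes, and a probe is called under 0.05. The number of arrays limits the precision; the median SE of a shift was 0.288.

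The comparison and the 30 gene lists (846 gene names) were chosen with earlier results of these data known. Genes are named by rule: the 15 largest rises and falls among named called genes, up to 4 members of each list with the smallest p, vitellogenins, zona pellucida proteins and estrogen receptors, 3 unnamed probes in each direction, and the 5 smallest called changes; others are marked as picked after their values were seen. Gene names are those of the array's design, and 0 of its 86 GenBank identifiers matched the RefSeq gene table. Alternatives were all 15 arrays in the fit, normexp (offset 50, on median signals, since mean signals were not used here), quantile and median scaling, the value table, other detection filters, slide as a block, each slide alone, a trended prior and each array left out. The median shift over all probes was -0.05, against 0.10 with normexp, -0.08 with quantile and -0.07 with median scaling and -0.09 in the value table.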

Additional observations from a re-analysis of the deposited data

Results flagged for a closer look

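Among 78 groups of 5 arrays examined (39 probes), 4 held an array far from the others by Dixon's criterion; chance flags about 1 in 20 groups. For dynactin subunit 2, control replicate 4 had a level of -2.50, while the other controls lay between -2.20 and -2.15. For G patch domain containing 1, replicate 4 at 250 ng/L had -2.15, against -2.76 to -2.65 on the other arrays at that dose. For the gene named upregulated by 1,25-dihydroxyvitamin D-3, control replicate 4 had -1.32, with the other controls between -0.83 and -0.68. For WAP four-disulfide core domain protein 3, on the probe that rose by 5.08, control replicate 2 had -3.98 and the other controls -5.62 to -5.34.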

How the results depend on the processing

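The 118 calls (101 higher, 17 lower) became 97 to 132 when 1 array was left out, with 85 to 109 higher and 8 to 24 lower. The fits within a slide rest on 5 arrays each: within slide 1 there were 38 calls, 38 higher and 0 lower by limma (626 probes at an unadjusted p under 0.05), and within slide 2 there were 62, 53 higher and 9 lower. The count of fallers was 37 with all 15 arrays in the fit, 28 with quantile normalization and 31 with the authors' value table, and 16 with normexp or with slide as a block. The totals over the settings other than the within-slide fits and the left-out arrays ran from 110 with normexp to 159 with all 15 arrays. Over all named probes, counts and list medians, 4626 values were taken as unchanged. For a count that means a change of at most 1.5-fold. Of the rest, 352 lost the call, 29 gained one, 24 counts or list medians moved and 1 reversed. The reversal was UnAn_27545, a dim unnamed probe that fell by 1.42 and had 0.13 with normexp (adjusted p = 0.873); the cause was not tested. Of the 101 risers, 84 were well above background on all 5 controls, and the other 17 rest on dimmer control signals. No paired analysis was possible because the labels give the arrays no replicate numbers, so nothing ties a 250 ng/L array to a control.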

Other observations

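Some called probes kept a nearly fixed distance from another called probe over the 10 arrays, a pattern looked for after the values were seen. Among 6903 pairs of called probes, 7 had a difference whose span over the arrays was under 0.5 log2 units. The median span was 3.91 among the 5050 pairs called higher. A span over both groups widens wherever the 2 shifts differ. That median is therefore no measure of how arrays within a group vary together, and the 7 are the extremes of many pairs. Cathepsin E and cathepsin E1 had the smallest span, 0.19. Serotransferrin I and a ZP4 probe, named for an iron carrier and an egg envelope protein, had a span of 0.293. A second ZP4 probe and a probe named sporozoite surface protein 2 had 0.303, as did 1 probe each of WAP four-disulfide core domain proteins 3 and 2. The unnamed UnAn_21133 followed the first ZP4 probe with a span of 0.449, and gamma-gliadin followed App1 protein with 0.486. The fallers UnAn_23613 and UnAn_23614 had 0.416.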
